A study of Caenorhabditis elegans with 24 samples.

Results

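Wild-type adults of the nematode Caenorhabditis elegans kept at 25 °C were compared with wild-type adults kept at 15 °C. The comparison used 6 of the 24 arrays of the series, 3 for each temperature, chosen by the genotype, stage and temperature in the sample titles. Worms of the 25 °C group and of the 15 °C group were alike in genotype (wild type), in age (3 days past late L4, the last larval stage) and in culture on NGM plates, a standard agar medium. Each preparation pooled about 120 worms and was hybridised to 1 Affymetrix Gene 1.1 ST array, which carries probe sets for most transcripts of the worm. The series also holds adults of the daf-16(mgDF47) mutant at 25 °C and 15 °C, which are used below for comparison, and late L4 larvae of both genotypes at both temperatures, which entered the fit only as a source of the spread. The sources used here give neither the temperature before late L4 nor whether preparations came from separate cultures, and p-values reflect the spread among preparations alone. Worms were matched by days, and temperature itself cannot be told apart from how far adult life had advanced.

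C. elegans has no control over its body temperature, and it develops, lays eggs and ages faster in the warm. Neurons of the head sense temperature, and the cold-activated channel TRPA-1 is known to extend life in the cool through the FOXO transcription factor DAF-16, the end point of insulin-like signalling. The adult hermaphrodite is a body of non-dividing tissues (intestine, muscle, neurons and a skin that secretes the collagen cuticle) around a dividing germ line, with sperm stores and a uterus of embryos.

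Values are log2 intensities after RMA, a method of background correction, normalization and probe summary. A difference is 25 °C minus 15 °C in log2 units with the standard error of a limma fit, so 1 unit is 2-fold. A gene was called at a Benjamini-Hochberg adjusted p under 0.05 over 25434 genes. Array medians of the 6 arrays lay between 3.57 and 3.72. Arrays of 1 temperature correlated across genes at 0.991 to 0.994 and arrays of different temperatures at 0.970 to 0.980, genes not being independent replicates. A first principal component with 68.5% of the variance separated the temperatures, and a second with 12.7% set preparation 1 of both temperatures apart. The yolk protein gene vit-2, a mark of the egg-laying adult, stood at 11.89, 11.79 and 12.01 at 25 °C and at 11.87, 11.87 and 11.80 at 15 °C, near the top of the scale on all 6 arrays. The gene daf-16 stood at 8.72, 8.83 and 8.20 in 25 °C mutants and at 8.02, 8.54 and 8.71 in 15 °C mutants, against 10.63, 10.56 and 10.59 in 25 °C wild type and 10.36, 10.50 and 10.53 in 15 °C wild type. Mutant and wild-type values did not overlap, while daf-16 itself was not called between temperatures in the wild type (0.13 ± 0.16, limma adjusted p = 0.58).

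Of 25434 genes, 7667 were called between the temperatures by limma (30.1%), and rises were larger than falls. Of them 3851 were higher at 25 °C (15.1%) and 3816 lower (15%). At least 2-fold differences leaned one way, with 1524 genes higher (5.99%) and 271 lower (1.07%). The median called rise was 0.87 and the median called fall -0.56, while the median over all genes was -0.10. After centring of the arrays on their medians, 3401 genes were higher and 6059 lower, and the higher share of calls moved to 36%, against 50.2% without centring. After cyclic loess 3962 were higher and 3033 lower, a higher share of 56.6%. Centring put the median of all genes at -0.19 and cyclic loess at -0.01. Of 59 list counts of 5 or fewer, 41 moved by more than 1.5 times in at least 1 alternative, so such small counts below are given as values only. Counts for gene groups are therefore set against all protein-coding genes, of which 19.5% were higher and 17.1% lower, with a median of -0.07 (7.79% and 1.24% for differences of at least 2-fold).

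The share of genes called varied with their level. When genes were sorted into 5 bins of equal size by their level at 15 °C, rises of at least 2-fold made up 9.54% of the middle bin and 15.2% of the next brighter one, but 2.63% of the brightest. Falls of at least 2-fold were also most frequent in that next brighter bin, at 3.81%, against 1.28% in the brightest. Over calls of any size, the brightest bin had 9.65% higher and 34.9% lower and the dimmest 2.40% higher and 2.44% lower. The middle bin had 22.4% higher and 8.57% lower. The next to brightest bin, with levels from 4.36 to 7.65, had 33.7% higher and 22.9% lower. Of the lists below, FMRFamide-like (4.55), patched-related (4.68), moulting (5.69) and DAF-16 target genes (5.33) had median levels within that bin. In that order their shares higher were 74.2%, 65.4%, 70% and 64%. The level at 15 °C that set the bins is also part of the difference. Genes of class ncRNA in the RefSeq table were seldom called: of 5979, 10.8% were called in either direction, with 42 at least 2-fold higher (0.702%) and 15 at least 2-fold lower (0.251%).

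**Figure D1:**
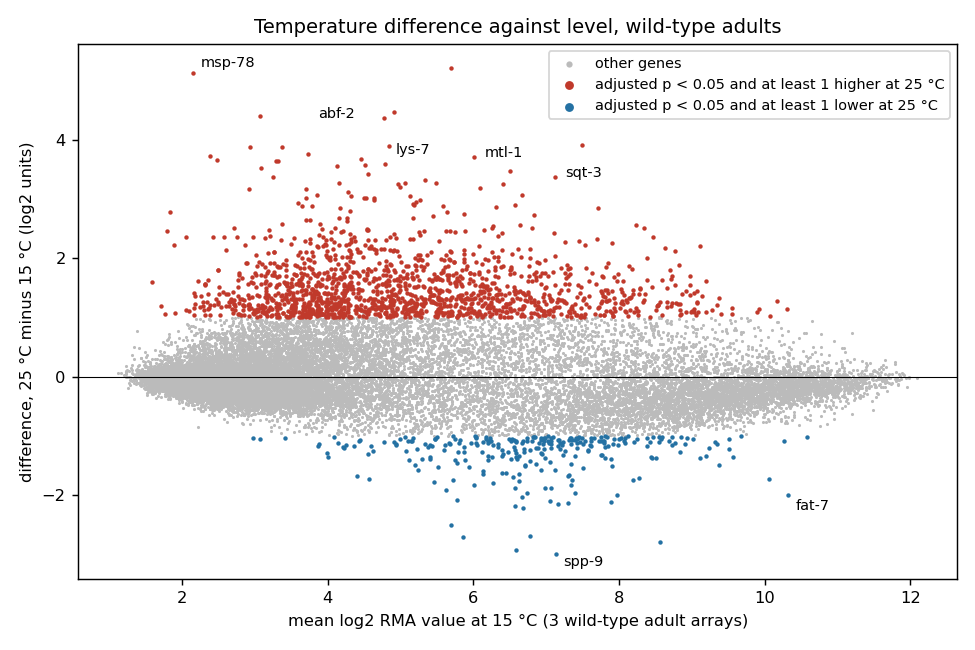
Difference between temperatures (25 °C minus 15 °C, log2 units, vertical) against the mean log2 RMA value of the 3 arrays at 15 °C (horizontal), 1 point per gene for 25434 genes. Red points are the 1524 genes called at least 2-fold higher and blue points the 271 called at least 2-fold lower. Red points gather at middling levels, and the brightest of 5 equal bins of genes has a median of -0.22.

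The X chromosome stood apart from the 5 autosomes in this comparison. Of 2579 protein-coding genes on X (RefSeq table, assembly WBcel235), 787 were higher at 25 °C and 193 lower, or 30.5% and 7.48%, with a median difference of 0.12. Of 16146 autosomal genes, 17.8% were higher and 18.7% lower, with a median of -0.09. Single autosomes ranged over 16.9% to 19.2% higher and 13.1% to 25.6% lower, so X lay outside the range of the autosomes on both sides. The split was as clear among genes in the 2 brightest bins, where 40.1% of X genes were higher and 10.9% lower, against 15.5% to 26.4% and 27.3% to 36.3% on the autosomes. Leaving out all genes of the lists described below, 29.4% of X genes were higher and 8.01% lower, against 18.4% and 20.6% on the autosomes. After the same centring the X shares were 27.3% and 13.8% and the autosomal shares 15.8% and 26.8%. In daf-16 mutants the X shares were 29.9% higher and 5.27% lower, and the autosomal shares 15.2% and 13.5%. In the hermaphrodite the X is known to carry few genes expressed in the germ line. Germ line lists did not move in 1 direction. Of 31 meiosis genes 17 fell and 0 rose. Of 91 replication and cell division genes 35 fell (38.5%) and 1 rose, near the 34.9% lower among all genes of the brightest bin. Of 33 oocyte and eggshell genes 5 fell and 2 rose. By contrast 7 of 16 histone genes rose and 0 fell, and 11 of 51 sperm genes rose and 2 fell. The part of germ line genes in the difference between chromosomes was not tested. Arrays measured whole worms, in which fewer cells of a type and less RNA per cell cannot be told apart.

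**Figure D2:**
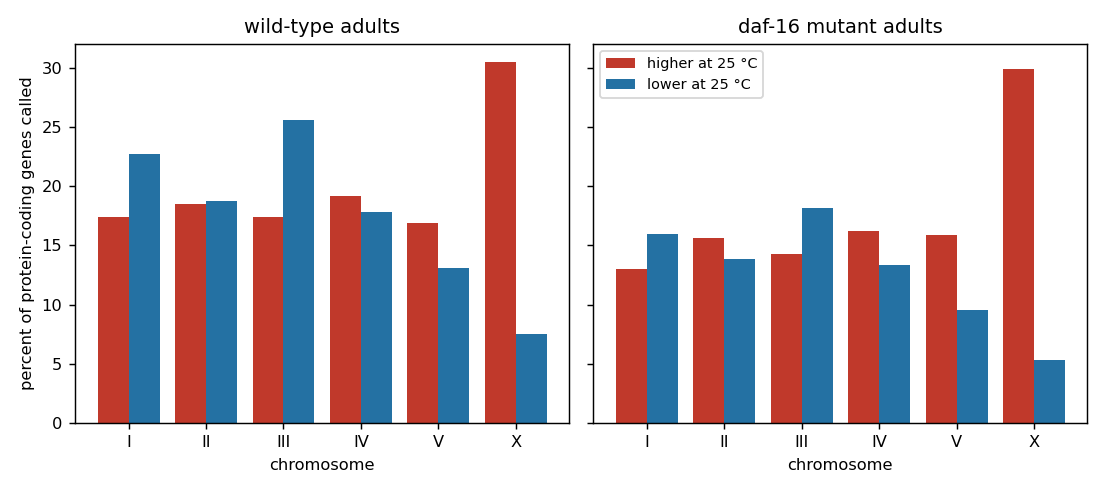
Percent of protein-coding genes called higher (red) and lower (blue) at 25 °C by limma, by chromosome, in wild-type adults (left) and daf-16 mutant adults (right). In both genotypes X has the tallest red and the shortest blue bar, with 30.5% against 7.48% in wild type.

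The largest rises among genes with a standard name included sperm, immune, metal-binding and cuticle genes. Of these 20 genes 13 had a mean at 15 °C above the medians of all 3 cool arrays. The major sperm protein gene msp-78, of a family that moves the crawling sperm, stood at 5.04, 8.95 and 7.82 at 25 °C, against 2.25, 2.27 and 1.94 at 15 °C (5.12 ± 0.60). Its warm values spanned nearly 4 units, with preparation 1 lowest, and the near identity of msp genes leaves the value of any 1 of them uncertain. The antibacterial factor abf-2 stood at 8.93, 9.35 and 9.11 at 25 °C, against 3.99, 4.92 and 5.39 at 15 °C (4.36 ± 0.22). The lysozyme lys-7, which degrades bacterial walls and is a known DAF-16 target, stood at 8.28, 9.48 and 8.46 at 25 °C, against 4.59, 5.47 and 4.44 at 15 °C (3.90 ± 0.24). For both defence genes the lowest warm array exceeded the highest cool array by over 2 units. The metallothionein mtl-1, which binds metals, stood at 9.63, 9.59 and 9.91 at 25 °C, against 5.36, 6.31 and 6.33 at 15 °C (3.71 ± 0.31). The cuticle collagen gene sqt-3 was the brightest of the 20 largest rises, at 10.37, 10.67 and 10.41 at 25 °C, against 6.79, 8.12 and 6.44 at 15 °C (3.37 ± 0.28). Groups of the 20 genes did not overlap, which the rule for naming them required. For sqt-3 preparation 2 was the highest at both temperatures. The insulin-like peptide ins-7 stood at 8.33, 9.20 and 8.41 at 25 °C, against 4.89, 5.80 and 5.30 at 15 °C (3.31 ± 0.23). The T-box gene tbx-43 stood at 8.66, 8.11 and 7.60 at 25 °C, against 4.26, 4.49 and 4.61 at 15 °C (3.67 ± 0.23). In alphabetical order, the others of the 20 were abu-14 (3.2), clec-174 (3.65), col-125 (3.64), dbd-13 (4.41), dct-8 (3.73), icmt-1 (3.87), lipl-2 (3.56), mbug-1 (3.59), nlp-34 (3.28), nspd-1 (3.26), nspd-7 (3.43), pqn-73 (3.88) and tts-2 (3.76). By limma the 20 had adjusted p of at most 4.3e-06. Genes with no standard name were not ranked.

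The 20 largest falls, between -3.0 and -1.57, were smaller than the 20 largest rises, between 3.2 and 5.12. The saposin-like gene spp-9, of a family of membrane-disrupting peptides, stood at 4.40, 3.67 and 4.31 at 25 °C, against 8.38, 6.67 and 6.34 at 15 °C (-3.0 ± 0.40). The lectin gene clec-10 stood at 3.85, 4.08 and 4.35 at 25 °C, against 6.84, 6.36 and 7.14 at 15 °C (-2.68 ± 0.23). C-type lectins are secreted or membrane proteins with a sugar-binding fold, many of them tied to pathogen responses, and clec-53 (-2.22), clec-52 (-2.18), clec-3 (-2.15) and clec-4 (-1.76) fell as well. The cathepsin B-like protease gene cpr-8 stood at 5.13, 5.0 and 5.34 at 25 °C, against 7.49, 7.06 and 7.33 at 15 °C (-2.14 ± 0.17). The folate transporter gene folt-2 was bright, at 7.96, 8.17 and 8.85 at 25 °C, against 10.18, 9.92 and 10.09 at 15 °C (-1.74 ± 0.16). For each of these genes the warm and cool arrays did not overlap, which the rule for naming them required. The gene spd-3, needed for spindle orientation and mitochondria in the embryo, stood at 4.39, 5.02 and 5.45 at 25 °C, against 6.90, 7.14 and 7.12 at 15 °C (-2.1 ± 0.23). The meiotic crossover gene msh-4 stood at 5.08, 5.67 and 5.33 at 25 °C, against 6.96, 6.93 and 6.92 at 15 °C (-1.57 ± 0.32). The remaining falls were ugt-62 (-2.12), fat-7 (-2.0), rips-1 (-1.99), spp-23 (-1.80), msra-1, a methionine sulfoxide reductase (-1.74), asp-12 (-1.69), acdh-2 (-1.67), pcp-4 (-1.63), pitr-5 (-1.63) and fbxa-184 (-1.57). By limma the 20 had adjusted p of at most 0.00073.

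**Figure D3:**
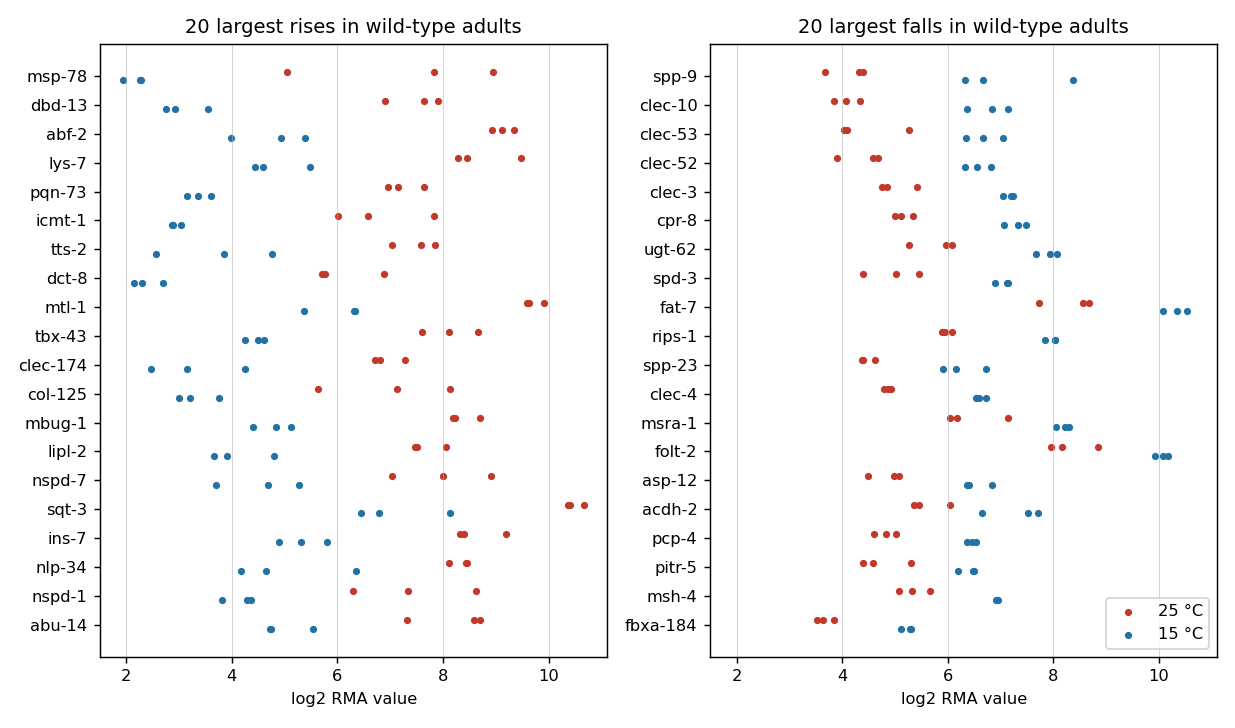
Log2 RMA value of each array (horizontal) for the 20 largest named rises (left) and falls (right) in wild-type adults, sorted by size from the top. Each gene has 3 red points for 25 °C and, just below, 3 blue points for 15 °C. msp-78 has the widest warm points, from 5.04 to 8.95.

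Defence genes moved in both directions, with different members of 1 family on opposite sides. So did protein-coding genes as a whole, with 19.5% higher and 17.1% lower. Of 16 lysozymes, 6 rose and 4 fell (median 0.13). Beside lys-7, the invertebrate-type lysozyme ilys-2 stood at 5.05, 4.60 and 4.16 at 25 °C, against 2.11, 1.66 and 1.74 at 15 °C (2.77 ± 0.23), and the already bright lys-8 rose by 0.93 ± 0.13. Among 28 saposin-like genes, 8 rose and 6 fell (median 0.14), with spp-31 (1.76 ± 0.20) and spp-15 (1.55 ± 0.23) opposite to spp-9 and spp-23. Of 61 antimicrobial peptide genes 16 rose and 3 fell (median 0.03). Their leaders besides abf-2 were nlp-34, an epidermal glycine-rich peptide (3.28 ± 0.43), the caenacin cnc-6 (2.58 ± 0.14) and abf-5 (1.72 ± 0.14). Of 247 C-type lectins 44 rose (17.8%) and 30 fell (12.1%), with a median of -0.10 near that of all genes. Both shares lay below those of all protein-coding genes. The count of falling lectins depended on the treatment of the arrays, at 55 after centring and 14 without 25 °C preparation 2. Genes induced by infection or toxins rose in 8 of 17 cases and fell in 0, with 5 that rose without 15 °C preparation 1. Among them sysm-1 stood at 10.75, 10.76 and 10.85 at 25 °C, against 8.0, 8.85 and 7.84 at 15 °C (2.56 ± 0.23). Genes of the intestinal aspartyl and cathepsin-like proteases, which digest bacteria, fell in 7 of 28 cases and rose in 3 (7 after cyclic loess). Besides cpr-8 and asp-12, asp-14 fell by 1.35 ± 0.21, while asp-17 rose by 1.76 ± 0.43, a call lost with only the 6 wild-type adult arrays in the fit.

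Detoxification families also held genes of both directions, as did all protein-coding genes, with 19.5% higher and 17.1% lower. UDP-glucuronosyltransferases, which couple sugars to toxins, numbered 67, of which 19 rose (28.4%) and 12 fell (17.9%). The falls numbered 7 with only the 6 wild-type adult arrays, 6 without 15 °C preparation 2 and 5 without 25 °C preparation 1. The median level of this list at 15 °C was 4.70, within the next to brightest of the 5 bins by level. Of all genes in that bin 33.7% were higher and 22.9% lower, so neither share of the list lay above that of the bin. The gene ugt-27 stood at 4.60, 5.11 and 5.07 at 25 °C, against 2.59, 2.67 and 2.45 at 15 °C (2.36 ± 0.19). Cytochrome P450 genes, which oxidise lipids and foreign compounds, rose in 15 of 74 cases (20.3%) and fell in 7 (9.46%). Without 25 °C preparation 2 the falls numbered 4. Of the P450 genes cyp-34A9 (2.29 ± 0.31) and cyp-34A2 (2.2 ± 0.22) led the rises. Among 48 glutathione S-transferases 5 were higher (10.4%) and 8 lower (16.7%), led by gst-26 (-1.09 ± 0.20).

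Several classic heat shock genes were not called between 25 °C and 15 °C. The inducible small heat shock gene hsp-16.2 stood at 1.54, 1.61 and 1.39 at 25 °C and at 1.32, 1.47 and 1.52 at 15 °C, below the array medians in both groups (0.08 ± 0.17, limma adjusted p = 0.75). Other stress chaperones, hsp-70 (0.09 ± 0.36) and hsp-16.41 (-0.06 ± 0.15), were not called either, nor was the bright constitutive hsp-1 (-0.11 ± 0.11). These genes were picked after their values were seen. The chaperone gene hsp-90 was called, a call lost in 7 alternatives, among them cyclic loess. Of 22 heat shock genes 6 rose and 5 fell (median -0.06). The falls numbered 0 after cyclic loess, 2 without 15 °C preparation 1 or with only the 6 wild-type adult arrays, and 3 without any 1 of the 25 °C preparations. The largest rise was in hsp-12.2, a small heat shock gene that heat does not induce, at 8.38, 7.46 and 7.41 at 25 °C, against 7.06, 6.17 and 6.30 at 15 °C (1.24 ± 0.23). Preparation 1 was the highest at both temperatures for this gene. Genes of protein folding and the unfolded protein response in the endoplasmic reticulum numbered 26, with 4 higher and 3 lower. Both counts depended on scaling, with 11 higher and 0 lower after cyclic loess and 1 higher and 7 lower after centring.

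Of 25 known DAF-16 targets 10 rose and 0 fell in daf-16 mutants, with a median of 0.19, and 16 rose and 2 fell in the wild type, with a median of 0.72. The test of the difference between genotypes called 1 of the 25, against 0.267% of all genes. Members not called are not thereby shown to respond alike in both genotypes. The list had been chosen with earlier results of these data known, and its most raised members, lys-7, mtl-1 and ins-7, are described above. Of these ins-7 is a gene that DAF-16 is known to lower. The gene dod-6 stood at 10.82, 10.60 and 11.14 at 25 °C, against 8.13, 8.84 and 8.07 at 15 °C (2.50 ± 0.22). By contrast the superoxide dismutase sod-3, a reporter of DAF-16 activity, stood at 3.62, 3.36 and 3.38 at 25 °C and at 3.03, 3.10 and 3.14 at 15 °C. Its groups did not overlap, which held for 17.6% of all genes in that direction. The gene was not called (0.36 ± 0.16, limma adjusted p = 0.1, or 0.035 with the preparation number as a block), and both means lay below the array medians. The list was thus not uniform. Among 32 metal handling genes 8 rose and 3 fell. The second metallothionein, mtl-2, was bright at both temperatures, at 9.41, 9.04 and 9.65 at 25 °C and 9.22, 8.45 and 8.97 at 15 °C, and was not called (0.49 ± 0.21, limma adjusted p = 0.088). The zinc transporters zipt-13 (1.09 ± 0.14) and zipt-2.4 (-0.72 ± 0.12) moved in opposite directions. Antioxidant enzymes rose in 7 of 27 cases and fell in 4 (7 with the preparation number as a block and 7 after centring). The extracellular dismutase sod-4 (1.05 ± 0.11) and the glutathione peroxidase gpx-5 (1.36 ± 0.19) rose, while the bulk enzymes sod-1 (-0.23 ± 0.13) and sod-2 (-0.25 ± 0.17) were not called.

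Genes of fatty acid desaturation split at 1 step. The delta-9 desaturases FAT-6 and FAT-7 both make oleic acid from stearic acid, yet fat-7 stood at 8.68, 8.57 and 7.72 at 25 °C, against 10.54, 10.08 and 10.35 at 15 °C (-2.0 ± 0.27). Over the same arrays fat-6 stood at 10.37, 10.12 and 10.35 at 25 °C, against 9.49, 9.36 and 9.57 at 15 °C (0.81 ± 0.12). The 2 genes moved in opposite directions, each with groups that did not overlap. For fat-7 the rule for naming the largest falls required this. Over all genes 17.6% were higher at 25 °C without overlap and 25.2% lower. The later steps, which add further double bonds, all rose: fat-2, a delta-12 desaturase, by 0.73 ± 0.13, fat-1, an omega-3 desaturase, by 0.48 ± 0.13, fat-3, a delta-6 desaturase, by 1.19 ± 0.18 and fat-4, a delta-5 desaturase, by 0.52 ± 0.15. Of these fat-4 lost its call with only the 6 wild-type adult arrays and without 15 °C preparation 1 or 25 °C preparation 3. The palmitoyl desaturase fat-5 rose by 0.97 ± 0.25, a call lost with only the 6 wild-type adult arrays. Among regulators of desaturation in the cold, paqr-2 (-0.36 ± 0.15, limma adjusted p = 0.072, or 0.017 with the preparation number as a block) and acdh-11 (0.23 ± 0.11, limma adjusted p = 0.11), were not called. Of these genes paqr-2, acdh-11, fat-1, fat-2 and fat-4 were chosen after their values were seen.

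Genes of lipid breakdown and carriage held rises and falls, as did all protein-coding genes, with 19.5% higher and 17.1% lower. The lysosomal lipase lipl-2 stood at 7.47, 7.5 and 8.06 at 25 °C, against 3.67, 4.79 and 3.91 at 15 °C (3.56 ± 0.27), and lipl-1 rose by 2.57 ± 0.43. Of 13 lipases 6 rose (46.2%) and 2 fell (15.4%). Fatty acid binding proteins, which carry lipids within and between tissues, rose in 9 of 17 cases (52.9%) and fell in 3 (17.6%). Their rises were led by far-3 (1.75 ± 0.19), lbp-1 (1.41 ± 0.17) and lbp-2 (1.4 ± 0.19). Of 61 genes of fatty acid activation and beta-oxidation 17 rose (27.9%) and 13 fell (21.3%), with a median of 0.02. The rises numbered 11 without 25 °C preparation 2 or with only the 6 wild-type adult arrays. The median level of this list at 15 °C was 6.81, in the next to brightest of the 5 bins by level. Of all genes in that bin 33.7% were higher and 22.9% lower. Opposite each other stood ech-9 (2.23 ± 0.24), an enoyl-CoA hydratase gene, and acdh-2 (-1.67 ± 0.35), an acyl-CoA dehydrogenase gene. Yolk genes were bright and flat: the summed signal of the 5 vitellogenins lay between 15005 and 15627 at 25 °C and between 14853 and 15934 at 15 °C. Of them vit-1 was called lower (-0.78 ± 0.24), a call lost after cyclic loess and without 15 °C preparation 1, 25 °C preparation 1 or 25 °C preparation 2. Signals near the top of the scale can hide differences. Of 38 carbohydrate genes 14 rose (36.8%) and 5 fell (13.2%). Among them aagr-1, an acid alpha-glucosidase relative, stood at 8.31, 8.80 and 8.80 at 25 °C, against 6.30, 7.07 and 6.91 at 15 °C (1.88 ± 0.17). The trehalose synthase tps-1 (1.15 ± 0.17) and the gluconeogenic enzyme pck-1 (1.28 ± 0.19) rose as well.

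Genes of the outer body cover and of moulting, best known from larvae, were higher in many cases, the col collagens excepted. Of 40 genes of the moulting apical matrix and its regulators 28 rose and 2 fell, with a median of 1.02, and 20 rose at least 2-fold. The zona pellucida protein gene noah-1 stood at 9.61, 9.45 and 9.35 at 25 °C, against 7.11, 6.69 and 5.89 at 15 °C (2.90 ± 0.27). The lipocalin lpr-3 stood at 8.11, 8.23 and 8.18 at 25 °C, against 5.42, 5.62 and 4.35 at 15 °C (3.04 ± 0.37). In both, warm arrays were tight and cool arrays spread over more than 1 unit, with 15 °C preparation 3 lowest. Hedgehog-related genes, secreted by the skin, rose in 18 of 57 cases and fell in 3, led by wrt-10 (2.94 ± 0.26) and wrt-2 (2.46 ± 0.36). Patched-related genes, whose products are membrane proteins of the hedgehog receptor family, rose in 17 of 26 cases and fell in 0 (median 0.64). Of these ptr-25 stood at 7.12, 6.89 and 6.65 at 25 °C, against 4.58, 4.30 and 3.90 at 15 °C (2.62 ± 0.23). Cuticlins rose in 16 of 34 cases and fell in 1, and astacin proteases, some of which shed the old cuticle, rose in 13 of 39 and fell in 0. The collagens themselves did not follow as a class. Of 153 col genes 22 rose and 9 fell (23 fell after centring and 15 without 15 °C preparation 2), with a median of -0.07 equal to that of all protein-coding genes. Of 19 body-shape collagens 6 rose and 1 fell, led by sqt-3, dpy-17 (2.51 ± 0.29) and dpy-14 (2.38 ± 0.24).

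Markers of other stages were measured on the same arrays, but all members of the larval, embryo and sperm marker lists also belong to other lists described here, so they are no separate evidence. Of 15 larval and moulting markers 12 rose and 1 fell, and their summed signal lay between 3602 and 4209 at 25 °C and between 821 and 1104 at 15 °C. All 15 lay above the array median on every warm array, and 12 to 14 did so on the cool arrays. The fall was lin-28 (-0.45 ± 0.13), a heterochronic gene of young larvae, while lin-14, of the same pathway, rose by 0.96 ± 0.17. Of 14 embryo markers 5 rose and 0 fell, with a summed signal of 2401 to 2865 at 25 °C and 1854 to 2107 at 15 °C. Of 16 male markers 2 rose and 1 fell, with a summed signal of 212 to 237 at 25 °C and 197 to 214 at 15 °C, and 3 to 5 of the 16 above the array median. Whether embryos or larvae in the samples had a part in the rise of the moulting and body cover genes was not tested. In daf-16 mutants 30 of the 40 moulting genes rose and 1 fell, and 16 of 26 patched-related genes rose and 0 fell. Of the 34 cuticlins 17 rose and 2 fell there, of the 39 astacins 9 rose and 2 fell, and of the 153 col genes 19 rose and 19 fell. Whether these counts differ between genotypes was not tested.

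**Figure D4:**
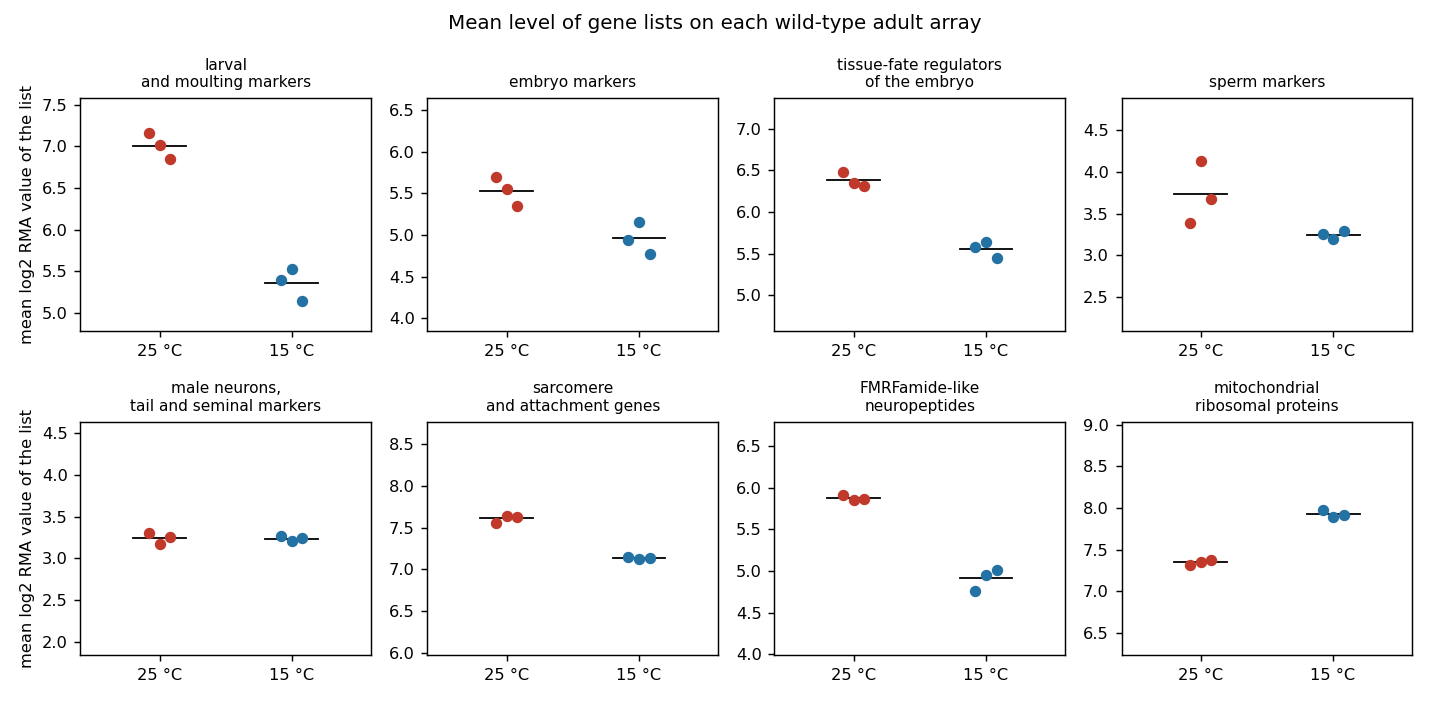
Mean log2 RMA value of the members of 8 gene lists on each wild-type adult array (vertical, each panel spanning 2.8 units), with 25 °C on the left and 15 °C on the right and a line at the mean of the 3 arrays. Larval and moulting markers, fate regulators, sarcomere genes and neuropeptides are higher at 25 °C on all 3 arrays and mitochondrial ribosomal proteins lower, while male markers overlap. Embryo markers (5.35 to 5.70 at 25 °C, 4.78 to 5.16 at 15 °C) and sperm markers (3.39 to 4.14, 3.19 to 3.29) are also higher at 25 °C without overlap.

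Regulators of embryonic tissue fate rose in most cases. Of 31 such transcription factors 20 rose (64.5%) and 0 fell, with a median of 0.69. Homeobox genes, a list that shares ceh-34 with them, rose in 37 of 90 cases (41.1%) and fell in 2. These falls numbered 9 after centring, 8 with only the 12 adult arrays and 4 without 25 °C preparation 1. Median levels of the 2 lists at 15 °C were 5.43 and 4.38, within the next to brightest of the 5 bins. Of all genes in that bin 33.7% were higher. The Six-family homeobox gene ceh-34, which specifies pharyngeal neurons, stood at 6.67, 6.48 and 6.65 at 25 °C, against 3.8, 4.42 and 4.06 at 15 °C (2.50 ± 0.22). Its relative ceh-32 stood at 8.87, 8.34 and 7.82 at 25 °C, against 5.85, 6.04 and 5.76 at 15 °C (2.46 ± 0.20). Both act in the head, as does the Pax6 gene vab-3 (1.89 ± 0.18), and the neuronal selectors unc-42 (2.28 ± 0.27) and unc-86 (1.98 ± 0.22) rose with them. The muscle regulator hlh-1, at 4.51, 4.49 and 4.52 at 25 °C and 4.07, 4.24 and 4.49 at 15 °C, was not called (0.24 ± 0.13, limma adjusted p = 0.17) and was picked after its values were seen. Early zygotic and T-box genes, switched on in the young embryo, rose in 25 of 67 cases and fell in 2, with tbx-43 followed by sdz-28 (2.01 ± 0.23), sdz-6 (1.94 ± 0.22) and sdz-25 (1.73 ± 0.20). The embryonic hatching protease hch-1 stood at 8.13, 8.12 and 8.01 at 25 °C, against 5.25, 5.54 and 4.71 at 15 °C (2.92 ± 0.33). Of 16 histone genes 7 rose and 0 fell, among them the linker histones hil-7 (2.36 ± 0.19) and his-24 (1.88 ± 0.21). Histone genes have near-identical copies, and values of single core histones are uncertain. The embryo markers given above are among the genes of these lists, and the part of retained embryos in these rises was not tested.

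Gene lists of neurons differed among themselves, with many rises among peptide and synaptic genes and few among sensory receptors. Sensory receptor genes were mostly dim and are set below against genes of like level. Of 31 FMRFamide-like peptide genes 23 rose and 1 fell, with a median of 1.0, and 15 rose at least 2-fold. The gene flp-1, whose loss makes worms hyperactive, stood at 7.42, 7.77 and 7.37 at 25 °C, against 5.14, 5.57 and 5.55 at 15 °C (2.1 ± 0.19). The gene flp-9 stood at 6.29, 6.33 and 6.33 at 25 °C, against 4.35, 4.19 and 4.36 at 15 °C (2.02 ± 0.15). Within each temperature flp-9 varied by less than 0.2 units. Of 83 other neuropeptide-like genes 43 rose and 3 fell, including nlp-49 (2.86 ± 0.25) and nlp-14 (2.13 ± 0.19). The largest rise of this list was nlp-34 (3.28), the epidermal peptide gene described above with the antimicrobial peptides. The list was thus not of neurons alone. Genes of synapses and dense-core vesicles, which store peptides, numbered 33, of which 17 rose and 1 fell. The peptide-processing pair sbt-1 (1.74 ± 0.14) and egl-3 (1.18 ± 0.14) rose, as did unc-25 (1.71 ± 0.17), which makes the transmitter GABA. Of 48 ciliary genes 14 rose and 2 fell, led by dyf-7 (1.73 ± 0.16). Insulin-like peptide genes rose in 11 of 40 cases (7 without 25 °C preparation 1) and fell in 2, with ins-28 (1.56 ± 0.25) and ins-1 (0.91 ± 0.20) higher besides ins-7 and with ins-5 lower (-1.13 ± 0.15). Of 95 ligand-gated ion channel genes 21 rose and 5 fell (8 after centring), near the background of 19.5%, with lgc-22 at 8.73, 8.58 and 8.71 at 25 °C, against 6.61, 6.66 and 6.67 at 15 °C (2.03 ± 0.14).

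The temperature-sensing circuit gave a mixed picture. Of 24 genes of thermosensation and the TRPA-1 pathway 7 rose and 2 fell. The homeobox gene ttx-1, which specifies the thermosensory AFD neurons, stood at 6.0, 5.81 and 5.86 at 25 °C, against 4.43, 4.48 and 3.75 at 15 °C (1.67 ± 0.19). The kinase cmk-1, which sets the temperature memory of AFD, rose by 1.53 ± 0.19, the LIM homeobox gene ceh-14 by 1.08 ± 0.19 and the steroid receptor gene daf-12 by 1.01 ± 0.13. The AFD guanylate cyclases that sense warmth had levels under 4. Of them gcy-8 stood at 2.86, 2.65 and 2.66 at 25 °C and at 2.87, 2.90 and 2.73 at 15 °C (-0.11 ± 0.15, limma adjusted p = 0.61), and gcy-18 was not called (-0.17 ± 0.16, limma adjusted p = 0.47). The remaining one, gcy-23, stood at 3.69, 3.74 and 3.68 at 25 °C, against 3.30, 3.33 and 3.41 at 15 °C (0.35 ± 0.12), a call lost in 7 alternatives, among them centring and leaving out any of 5 single arrays. Of 34 receptor guanylate cyclases in all, 3 rose and 3 fell (8.82% each), with a median level of 2.92 at 15 °C. In the next to dimmest of the 5 bins by level, which holds that median, 7.63% of all genes were higher and 6.21% lower. The channel gene trpa-1 stood at 3.83, 4.07 and 3.90 at 25 °C and at 3.94, 3.35 and 3.53 at 15 °C, with overlapping groups and no call (0.33 ± 0.16, limma adjusted p = 0.13). In the dimmest bin, up to a level of 2.39 at 15 °C, 2.40% of all genes were higher and 2.44% lower. Chemoreceptor-family genes had a median level of 2.22 at 15 °C, within that bin, and of 2.07 at 25 °C. They rose in 36 of 1298 cases (2.77%), near the share of that bin, and fell in 92 (7.09%). Their falls numbered 244 after centring, 38 after cyclic loess, 53 without 15 °C preparation 1, 34 without 25 °C preparation 2 and 51 with only the 6 wild-type adult arrays. Among the rises were srx-14 (1.89 ± 0.16), srg-34 (1.84 ± 0.15) and sri-43 (1.80 ± 0.17).

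Of 43 sarcomere and attachment genes 25 rose (58.1%) and 1 fell, with a median of 0.47. Their median level at 15 °C was 6.78, within the next to brightest of the 5 bins by level. Of all genes in that bin 33.7% were higher, and of all protein-coding genes 19.5%. The myosin heavy chain gene myo-3 stood at 6.91, 6.86 and 6.73 at 25 °C, against 4.85, 5.27 and 5.35 at 15 °C (1.68 ± 0.25). The major body wall myosin unc-54, picked after its values were seen, stood at 10.38, 10.41 and 10.47 at 25 °C, against 9.58, 9.59 and 9.62 at 15 °C (0.82 ± 0.17). Replicates of unc-54 differed by less than 0.1 units within each temperature. The troponin T gene mup-2 (1.04 ± 0.12) and the pharyngeal myosin gene myo-1 (1.15 ± 0.25) rose too. Secreted transthyretin-related proteins, a nematode family of which 1 member binds dying cells, rose in 32 of 58 cases (55.2%) and fell in 1. Their median difference was 0.71, with 24 at least 2-fold higher, and their median level at 15 °C, 5.15, lay within the same bin. The gene ttr-45 stood at 9.96, 10.10 and 9.92 at 25 °C, against 8.29, 8.07 and 8.18 at 15 °C (1.81 ± 0.11).

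**Figure D5:**
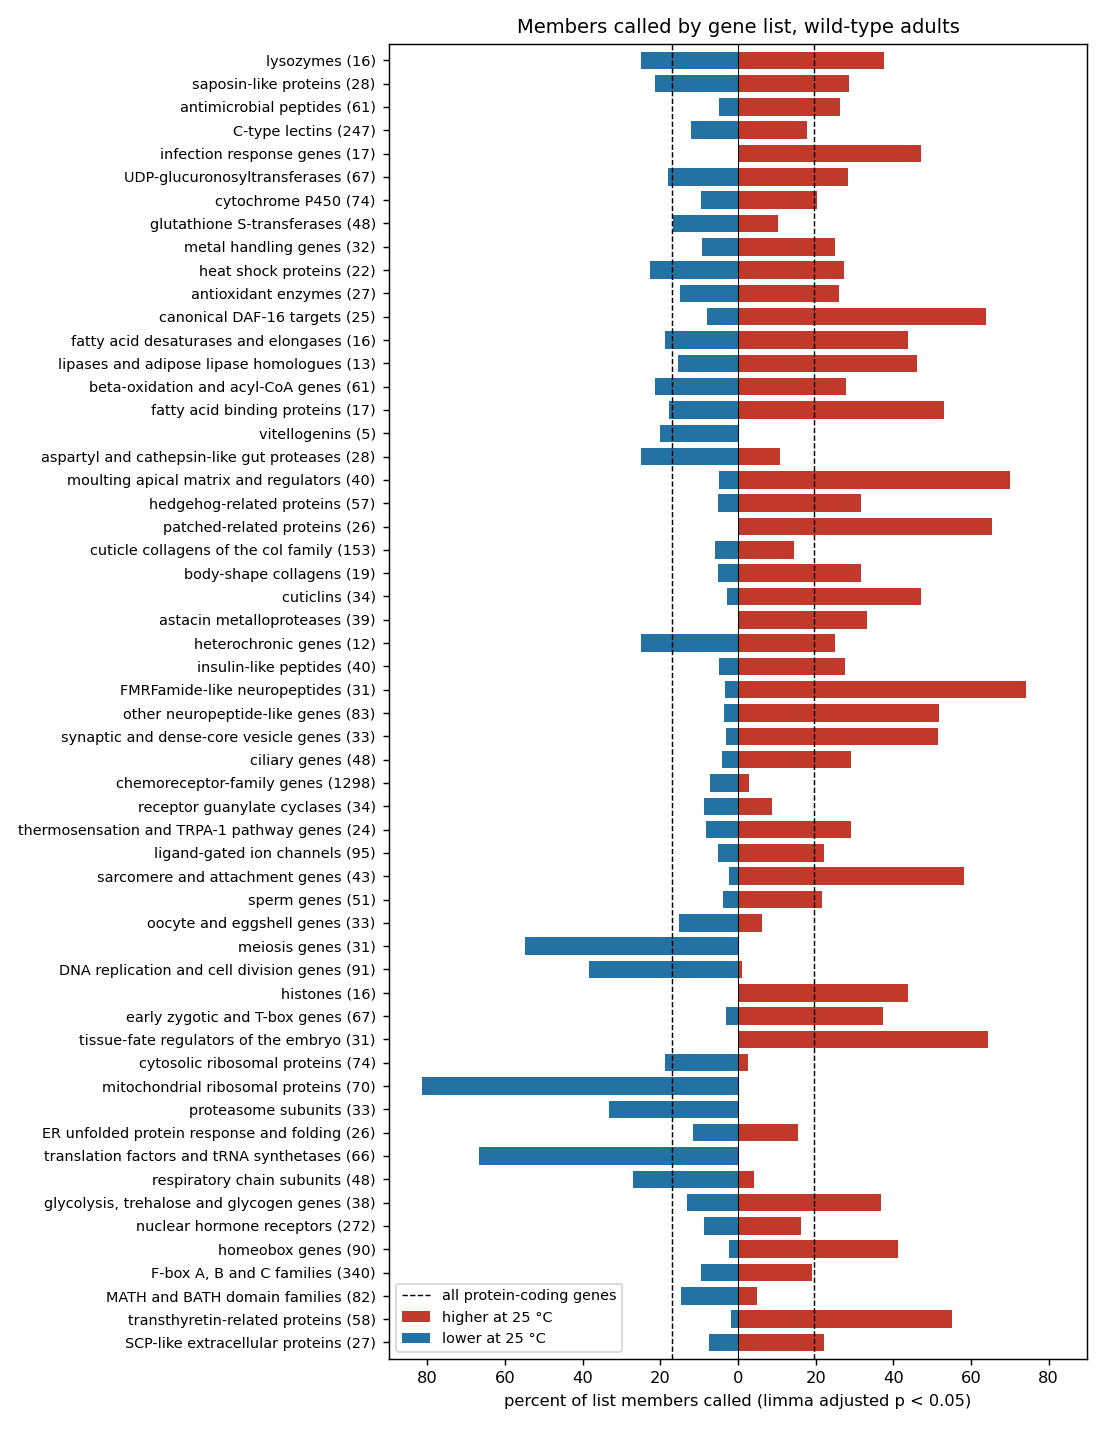
Percent of the members of 56 gene lists, without the marker lists, called higher (red, right) and lower (blue, left) at 25 °C by limma in wild-type adults, with the number of members after each name. Dashed lines are the shares over all protein-coding genes, 19.5% higher and 17.1% lower. FMRFamide-like peptide and moulting genes reach farthest to the right, mitochondrial ribosomal proteins and translation factors farthest to the left.

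Genes of meiosis and cell division were lower in many cases. Of 31 meiosis genes 0 rose and 17 fell, with a median of -0.46. The X-pairing gene him-8 stood at 7.33, 7.61 and 7.38 at 25 °C, against 8.69, 8.53 and 8.42 at 15 °C (-1.11 ± 0.12). The autosomal pairing gene zim-3 (-0.89 ± 0.15), the crossover gene zhp-3 (-0.88 ± 0.13) and the cohesin gene coh-4 (-0.85 ± 0.14) fell by similar amounts. Genes of DNA replication and cell division rose in 1 of 91 cases and fell in 35 (38.5%), with a median of -0.25. Their median level at 15 °C was 9.88, within the brightest of the 5 bins by level. Of all genes in that bin 34.9% were lower, with a median of -0.22, so the list lay near genes of like level. Falls in the list numbered 17 after cyclic loess and 23 without 25 °C preparation 3. Besides spd-3 they included the origin recognition gene orc-4 (-0.97 ± 0.15) and the centriole gene sas-7 (-0.90 ± 0.16). The germ granule helicase genes glh-2 (-1.03 ± 0.21) and glh-1 (-0.49 ± 0.13) fell, though only 5 of 33 oocyte and eggshell genes did, with 2 that rose. The 5 became 10 after centring and 3 after cyclic loess.

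Of 51 sperm genes 11 rose, a share near that of all protein-coding genes, and 2 fell, and 17 rose without 25 °C preparation 1. The gene nspd-7 stood at 7.04, 8.91 and 7.99 at 25 °C, against 3.70, 5.27 and 4.69 at 15 °C (3.43 ± 0.36), and nspd-1 stood at 6.29, 8.62 and 7.33 at 25 °C, against 4.36, 3.81 and 4.28 at 15 °C (3.26 ± 0.37). As for msp-78, preparation 1 was the lowest and preparation 2 the highest of the warm arrays. The nspd genes too are nearly identical, which leaves single values uncertain. Of 10 sperm markers 1 was called higher, and 3 were without 25 °C preparation 1 or without 15 °C preparation 2. Their summed signal lay between 184 and 572 at 25 °C and at no more than 126 at 15 °C, with the lowest warm value in preparation 1. The sperm phosphatases gsp-3 (0.87 ± 0.39, limma adjusted p = 0.097, or 0.0085 with the preparation number as a block) and gsp-4 (0.20 ± 0.18, limma adjusted p = 0.44) were not called. The sperm fate regulator fog-1 stood at 9.10, 9.33 and 9.33 at 25 °C, against 7.72, 8.06 and 7.75 at 15 °C (1.41 ± 0.13), with preparation 1 lowest at both temperatures but by less than 0.3 units from the next. These 3 genes were picked after their values were seen.

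Mitochondrial ribosomes translate the few proteins encoded by mitochondrial DNA, and their subunits are made from nuclear genes. Of 70 mitochondrial ribosomal protein genes 0 rose and 57 fell, with a median of -0.59 and single differences between -0.97 and -0.16, so that all 70 lay below 0. The list's mean lay between 7.31 and 7.38 on the warm arrays and between 7.89 and 7.98 on the cool arrays. After cyclic loess, which moved the median of all genes to -0.01, 45 of the 70 fell. The gene mrpl-39 stood at 5.83, 5.92 and 5.80 at 25 °C, against 6.78, 6.97 and 6.73 at 15 °C (-0.97 ± 0.16). Genes of translation factors and tRNA synthetases, which load tRNAs with amino acids, fell in 44 of 66 cases and rose in 0, with a median of -0.53. The mitochondrial methionyl-tRNA synthetase mars-2 stood at 6.43, 6.17 and 6.30 at 25 °C, against 7.51, 7.26 and 7.51 at 15 °C (-1.13 ± 0.13). Its mitochondrial fellows dars-2 (-1.03 ± 0.15) and yars-2 (-1.02 ± 0.15) and the cytosolic initiation factor subunit eif-2Balpha (-1.08 ± 0.14) fell by about as much.

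Cytosolic ribosomal proteins moved less, with 14 of 74 lower and 2 higher (median -0.17). The falls numbered 27 after centring, 9 after cyclic loess and 7 without 15 °C preparation 1. Respiratory chain genes, a list of subunits that also held assembly factors, fell in 13 of 48 cases and rose in 2 (median -0.17, with 20 falls after centring). Those that fell most, cox-10 (-0.89 ± 0.12), cox-18 (-0.82 ± 0.12) and cox-19 (-0.82 ± 0.16), encode assembly factors of cytochrome oxidase. Proteasome subunits fell in 11 of 33 cases and rose in 0, led by pas-5 (-1.08 ± 0.16), with 21 falls after centring, 4 after cyclic loess and 7 with only the 6 wild-type adult arrays. Median levels at 15 °C of the cytosolic ribosomal, respiratory chain and proteasome lists were 10.68, 9.23 and 10.68, within the brightest of the 5 bins. Of all genes in that bin 34.9% were lower, with a median of -0.22. The shares lower in these lists were 18.9%, 27.1% and 33.3%, none above that of the bin. In daf-16 mutants the mitochondrial ribosomal list had 47 of 70 lower and 0 higher (median -0.46). The translation list had 36 of 66 lower and 0 higher there.

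In daf-16 mutant adults 3401 genes were higher (13.4%) and 2857 lower (11.2%) at 25 °C. Called higher in both genotypes were 2776 genes, or 81.6% of the mutant rises and 72.1% of the wild-type rises. Called lower in both were 1946, or 68.1% of the mutant falls and 51% of the wild-type falls. Of the 20 largest wild-type rises 19 were called in the mutant, and of the 20 largest falls all 20, in the same direction. The difference between genotypes, mutant minus wild-type response, was called by limma for 68 of 25434 genes (0.267%), 60 of them below 0 (0.236%) and 8 above (0.0315%), with 1716 genes at an unadjusted p under 0.05. The count was 25 in a fit of the 12 adult arrays alone and 175 with array weights. Without single wild-type arrays it was 44 (15 °C preparation 1), 37 (15 °C preparation 3), 114 (25 °C preparation 1) and 33 (25 °C preparation 2). Without single mutant arrays it was 37 (15 °C preparation 2), 41 (15 °C preparation 3), 38 (25 °C preparation 1) and 37 (25 °C preparation 3). Of the 20 largest wild-type rises 4 differed between genotypes by this test, and of the 20 largest falls 0.

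The gene with the largest difference, icmt-1, a carboxyl methyltransferase of prenylated proteins, stood at 2.57, 3.10 and 3.12 in mutants at 25 °C and at 3.01, 3.04 and 3.12 at 15 °C. In the wild type it stood at 7.82, 6.02 and 6.57 at 25 °C, against 2.88, 2.87 and 3.04 at 15 °C, a genotype difference of -4.0 ± 0.38 (limma adjusted p = 4.3e-06). Its 3 warm wild-type arrays stood above the other 9 adult arrays. The acetylcholine receptor subunit unc-38 stood at 4.40, 4.55 and 4.59 in mutants at 25 °C, against 3.49, 3.88 and 3.58 at 15 °C, and at 6.99, 5.92 and 6.10 in the wild type at 25 °C, against 3.54, 3.83 and 3.72 at 15 °C. The rise was thus present in both and smaller in the mutant (-1.78 ± 0.28, limma adjusted p = 0.003). The chemoreceptor gene sri-43 stood at 2.47, 2.68 and 2.61 in mutants at 25 °C and at 2.35, 2.58 and 2.47 at 15 °C, and in the wild type at 4.54, 4.53 and 3.82 at 25 °C, against 2.52, 2.48 and 2.49 at 15 °C (-1.68 ± 0.23, limma adjusted p = 0.00096). In the other direction parg-2, a poly(ADP-ribose) glycohydrolase gene, stood at 7.01, 7.18 and 6.88 in mutants at 25 °C, against 4.46, 4.82 and 4.43 at 15 °C, and in the wild type at 4.72, 4.91 and 5.43 at 25 °C, against 4.13, 4.03 and 3.87 at 15 °C (1.44 ± 0.25, limma adjusted p = 0.01). Both genotypes raised parg-2 in the warm. In a fit of the 12 adult arrays alone unc-38 and parg-2 lost this call, while icmt-1 and sri-43 kept it in every alternative run.

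Tested protein-coding genes were ordered by position in the RefSeq table (assembly WBcel235). In that order called genes formed 5 runs of at least 4 neighbours, each at least 2-fold higher. Genes of other classes and untested genes were skipped, so members of a run need not be adjacent on the chromosome. On X, the lipocalin genes lpr-3 (3.04 ± 0.37), lpr-6 (1.59 ± 0.22), lpr-5 (2.3 ± 0.32) and lpr-4 (2.12 ± 0.26) rose together, and lipocalins of this family line the outer surface of skin and tubes. On V, 3 transthyretin-related genes, ttr-24 (1.66 ± 0.15), ttr-25 (1.76 ± 0.18) and ttr-26 (1.25 ± 0.22), stood beside srg-34. The longest run, on IV, held 7 genes and included the collagen gene col-107 (2.14 ± 0.21) and hpo-6 (1.28 ± 0.15). A second run on IV held drd-50, at 10.57, 10.91 and 10.18 at 25 °C, against 7.45, 7.89 and 7.81 at 15 °C (2.84 ± 0.17), with mul-1 (1.14 ± 0.17) and 2 genes known by sequence names. The run on II held sri-36 (1.32 ± 0.18), sri-39 (1.4 ± 0.35) and 2 sequence-named genes. That run did not hold in every alternative. With only the 6 wild-type adult arrays in the fit sri-39 and F33H12.7 lost their calls, and F33H12.7 also lost its call without 15 °C preparation 1, 15 °C preparation 3 or 25 °C preparation 2. Neighbours with alike sequences may share probes, which was not tested.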

How the data were processed

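Per the submitters' processing notes the authors computed RMA values, deposited as log2 intensities (RMA version not given in the sources used here). Of 29317 probe sets, 25484 had 1 gene symbol in the platform table, and after leaving out 3 probe sets with blanks and keeping the brightest probe set of a gene, 25434 genes remained. No filter on dim genes was applied, and the 3133 probe sets with no symbol and 700 with several were not used.

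The fit of 8 group means used all 24 arrays and limma 3.58.1 in R 4.3.3 (lmFit, contrasts.fit and eBayes, 16 residual and 6.06 prior degrees of freedom), so larval arrays and mutants add to the estimate of the spread. Tests were two-sided, and p-values were adjusted by Benjamini-Hochberg over all genes of a comparison. The number of arrays, 3 a group, limits the precision: the median SE was 0.16 for temperature and 0.22 for the genotype difference. The calculation was tested on simulated data. Preparation numbers paired the arrays: deviations from the group means of same-numbered wild-type adult arrays correlated across genes at 0.29, 0.26 and 0.34, all over the limit of 0.1, and the block was tried as an alternative.

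Named genes are daf-16 and 11 sentinel genes of temperature and stress, the 20 largest rises and 20 largest falls with a standard name and non-overlapping groups, up to 4 called members of each list by size, the 5 largest genotype differences in each direction and runs of neighbours, with some members given beside them after their values were seen. The members, the 60 lists and the tests were chosen with earlier results of these data known. The alternatives were other arrays in the fit, centring, cyclic loess, array weights, an intensity trend, no dim genes, mean probe sets, the block and each array left out.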

Additional observations from a re-analysis of the deposited data

Results flagged for a closer look

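Between the genotypes, 12 named genes differed in their adult temperature response (mutant response minus wild-type response, log2 units) by limma's test of the difference. Of these 10 lay below 0, so that the rise with warmth was smaller or absent in daf-16 mutants: icmt-1 (-4.0), idpp-2 (-2.39), dct-8 (-2.19), tbx-43 (-2.12), F33H12.1 (-1.94), hsp-12.3 (-1.87), unc-38 (-1.78), sri-43 (-1.68), pqn-73 (-1.58) and srx-14 (-1.25). Above 0 lay ugt-32 (1.57) and parg-2 (1.44). The gene idpp-2 stood at 5.59, 5.28 and 5.23 in mutants at 25 °C, against 5.97, 6.31 and 6.04 at 15 °C, and in the wild type at 7.41, 7.25 and 6.87 at 25 °C, against 5.48, 5.61 and 5.50 at 15 °C, so it moved in opposite directions. Likewise hsp-12.3, of the small heat shock family, stood at 4.61, 5.02 and 4.88 in mutants at 25 °C, against 5.78, 5.81 and 5.90 at 15 °C, and in the wild type at 6.96, 5.97 and 6.01 at 25 °C, against 5.18, 5.21 and 5.92 at 15 °C. The wild-type rise of hsp-12.3 was itself not called with only the 6 wild-type adult arrays or without 15 °C preparation 1, 15 °C preparation 2 or 25 °C preparation 1. Of the 12, icmt-1, idpp-2, sri-43 and F33H12.1 kept the call in all alternatives run. In a fit of the 12 adult arrays alone the other 8 lost it, and hsp-12.3, ugt-32 and pqn-73 also lost it in 8, 8 and 6 of the 12 runs without 1 array.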

How the results depend on the processing

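With each array left out in turn, the number of genes higher at 25 °C lay between 3280 and 3840, lower between 2885 and 3764, at least 2-fold higher between 1426 and 1639, and at least 2-fold lower between 257 and 332. Centring each array on its median gave 6059 lower genes and 418 at least 2-fold lower. The genotype count of 68 was 25 with only the 12 adult arrays, 175 with array weights, and 33 to 114 without single arrays. Of 269 called named genes, 248 kept the call in all 21 alternatives, 21 lost it in at least 1, and 0 reversed. Of 61 list counts over 5, 15 moved by more than 1.5 times in at least 1 alternative, and of 59 counts of 5 or fewer, 41 did. The preparation number as a replicate block gave 4118 higher and 4280 lower genes. It called sod-3, paqr-2 and gsp-3, ended the call of cht-3 and changed no other call of a gene named in the text. Dim genes give little room for a fall, and bright ones such as the vitellogenins little room for a rise. The causes of these changes were not tested.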

Other observations

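Large regulator families of this worm are set against the shares of all protein-coding genes, 19.5% higher and 17.1% lower. Of 272 nuclear hormone receptor genes 44 rose and 24 fell, with 48 falls after centring and 14 without 25 °C preparation 2. Of them nhr-74 stood at 7.47, 7.08 and 7.39 at 25 °C, against 5.39, 5.12 and 5.31 at 15 °C (2.05 ± 0.28), and nhr-25, a receptor needed for moulting, rose by 1.33 ± 0.20. F-box genes of the A, B and C families, whose products recruit proteins for degradation, numbered 340, of which 65 rose and 32 fell, with a median of 0.05. Of these fbxc-51 (1.63 ± 0.18) and fbxa-184 (-1.57 ± 0.13) moved most in each direction. The MATH and BATH families, of related adaptors, had 4 of 82 higher and 12 lower. These falls numbered 7 after cyclic loess and, without single arrays, 7 (15 °C preparation 1), 7 (15 °C preparation 3), 5 (25 °C preparation 1) and 6 (25 °C preparation 2).

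Heterochronic genes, which time larval stages, moved in both directions in these adults, with 3 of 12 higher and 3 lower. The early-stage gene hbl-1 stood at 8.71, 8.51 and 8.30 at 25 °C, against 7.41, 6.93 and 6.66 at 15 °C (1.51 ± 0.24). The adult-stage cofactor gene mab-10 stood at 7.42, 6.79 and 6.95 at 25 °C, against 8.08, 7.82 and 7.66 at 15 °C (-0.80 ± 0.21). Of 27 SCP-like extracellular protein genes 6 rose and 2 fell, led by scl-2 (1.82 ± 0.20) and scl-5 (1.56 ± 0.24).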
